A study of Mus musculus with 30 samples.

Results

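The vacuolar ATPase (V-ATPase) subunits described here are 10 genes, 10 of 55487 in the count files of 23 single mouse embryos. They are *Atp6v0b*, *Atp6v0c*, *Atp6v0d1* and *Atp6v0e* of the membrane sector V0 and *Atp6v1a*, *Atp6v1b2*, *Atp6v1c1*, *Atp6v1d*, *Atp6v1e1* and *Atp6v1h* of the cytosolic sector V1. The list was chosen by name with the counts of these embryos by genotype and stage known, so the differences of its 10 members between genotypes and between stages are given as a description, with no p-value. The other 16 subunit genes of the enzyme in the files, which are not on that list, were examined beside them. The embryos came from matings of *Dis3* het mice and carried 2, 1 or 0 intact *Dis3* alleles. The earlier stage, E2.5, held 6 wild-type, 2 het and 4 null embryos, and the later, E2.75, held 3, 5 and 3 of these genotypes. The null allele lacks exons 3 to 5 of *Dis3* after CRISPR-Cas9 cutting, and every embryo, null embryos included, had a het mother that was stimulated with hormones. RNA and genomic DNA of each embryo were separated, so that genotype and RNA came from the same embryo, and ERCC spike-in RNA was added to each. The labels do not say which embryos were littermates.

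The V-ATPase is a rotary pump that hydrolyses ATP to move protons into lysosomes, endosomes, Golgi vesicles and, in some cells, across the plasma membrane. In V1, the A and B subunits hydrolyse ATP, D forms the central rotor with F, E and G form the outer stalks, and C and H tie the stalks to the membrane and regulate the enzyme. In V0, the ring of c and c″ subunits carries the protons past the a subunit, d links the ring to the central rotor, and e is a small hydrophobic subunit. Several subunits have isoforms from separate genes that differ in tissue, and without any isoform of an essential subunit the pump does not assemble. Mouse embryos without the c subunit die around implantation, and acidification of lysosomes is also needed to activate mTORC1 on the lysosomal surface.

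The counts on genes ranged from 1690192 to 14015980 per embryo, with the 2 libraries under 2000000 both from E2.75 null embryos. *Dis3* itself was 0 to 21.5 CPM (read counts scaled by library size with TMM normalization) in the 7 null embryos and 30.4 to 59.2 CPM in the 7 het embryos. In the 9 wild-type embryos it was 18.0 to 147 CPM, because 1 library, which the labels call wild-type replicate 6 of E2.5, stood at 18.0 CPM, within the range of the null embryos. The 6 wild-type embryos of E2.5 spread widely, at 85.2 ± 52.3 CPM (SD), and the next lowest of them lay within the het range. The differences of *Atp6v0d1*, *Atp6v1c1*, *Atp6v0e* and *Atp6v0b* that use this library and are described below are given with and without it. Reads counted to no gene because they did not lie wholly within annotated exons made up 32.3% to 43.9% in null, 21.2% to 27.9% in het and 20.99% to 33.4% in wild-type embryos. The 10 pre-implantation markers were all detected, at a summed 5142 to 19620 CPM. Of 10 markers of cumulus and granulosa cells, which surround the egg, 3 (*Inha*, *Inhba* and *Ptx3*) were at 0 in every library, and the summed level was 20.7 to 68.8 CPM in null, 5.65 to 33.9 CPM in het and 1.47 to 33.0 CPM in wild-type embryos. The summed level of 10 oocyte genes was 17.2 to 98.0 CPM in null, 10.9 to 64.2 CPM in het and 10.1 to 84.0 CPM in wild-type embryos. Of the 17 markers tested, 2 were called in null against het, the trophectoderm genes *Gata3* (log2 -2.12, SE 0.48; edgeR adjusted p = 0.00942) and *Krt18* (-2.96, SE 0.80; adjusted p = 0.0352), both lower. In null against wild-type edgeR called 0 of the 17, with 4 at an unadjusted p under 0.05 and 1 of 27 called by DESeq2, and *Gata3* was at 0.11 (SE 0.43) and *Krt18* at -1.65 (SE 0.74). Of all genes tested, 5.73% were called in null against het and 5.25% in null against wild-type. These fits merged the stages, which the genotypes hold in different shares. At E2.75 alone edgeR called 2 of 19 markers in each comparison, where 696 (against het) and 656 (against wild-type) of 14442 genes were called. At E2.5 it called 0 of 19 in each, with 2 at an unadjusted p under 0.05 in each. The part of the marker differences in the results below was not tested.

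The subunit that differed most between genotypes, *Atp6v0d1*, and the V0 subunits *Atp6v0b* and *Atp6v0e* have in common a short sequence at the start of the gene, the palindromic E-box CACGTG, and a POU6F1 peak over it. *Atp6v0b* and *Atp6v0e* were not called between genotypes with TMM scaling, and *Atp6v1a* has the E-box without a peak over it. A peak near the start was found at 66.5% of 13399 genes, and the share with both traits was not computed. The sequences below are RefSeq windows on GRCm38.p6 from 250 bases before to 50 bases after the start site, each written 5′ to 3′ on the strand of the gene, with each E-box in capitals. *Atp6v0d1* is shown from chr8:105566015-105566314 (minus strand), *Atp6v0b* from chr4:117887280-117887579 (minus strand) and *Atp6v0e* from chr17:26676146-26676445 (plus strand).
Atp6v0d1: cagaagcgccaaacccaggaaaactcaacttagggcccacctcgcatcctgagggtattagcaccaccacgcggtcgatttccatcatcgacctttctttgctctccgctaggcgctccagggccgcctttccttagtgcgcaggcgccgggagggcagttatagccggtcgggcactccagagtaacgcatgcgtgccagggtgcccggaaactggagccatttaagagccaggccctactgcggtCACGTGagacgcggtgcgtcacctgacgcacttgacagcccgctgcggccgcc
Atp6v0b: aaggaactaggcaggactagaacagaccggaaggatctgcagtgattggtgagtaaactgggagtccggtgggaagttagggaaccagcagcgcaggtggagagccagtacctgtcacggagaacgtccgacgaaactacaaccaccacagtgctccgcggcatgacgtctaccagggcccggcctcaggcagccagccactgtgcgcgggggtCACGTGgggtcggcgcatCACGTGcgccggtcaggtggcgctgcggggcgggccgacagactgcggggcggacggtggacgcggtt
Atp6v0e: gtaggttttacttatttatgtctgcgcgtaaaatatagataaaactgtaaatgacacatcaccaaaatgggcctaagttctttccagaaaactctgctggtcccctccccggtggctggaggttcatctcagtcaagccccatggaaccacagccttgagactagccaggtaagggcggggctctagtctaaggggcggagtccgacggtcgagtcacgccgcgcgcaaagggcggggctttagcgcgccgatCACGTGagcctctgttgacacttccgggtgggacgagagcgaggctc

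RefSeq windows were matched for 7 of the 10 members (*Atp6v0b*, *Atp6v0c*, *Atp6v0d1*, *Atp6v0e*, *Atp6v1a*, *Atp6v1d* and *Atp6v1e1*). Members and other subunits were counted as genes with a match in any of their windows, and *Atp6v0c* had several. The shares of all windows beside them count single windows. CACGTG, which reads the same on both strands, was in the windows of 4 of these 7, *Atp6v0d1*, *Atp6v0b*, *Atp6v0e* and *Atp6v1a*, against 7.15% of 32851 RefSeq windows of the same length. It began 3 bases before the start site in *Atp6v0d1* (position -3), at positions -36 and -18 in *Atp6v0b*, 3 bases after the start in *Atp6v0e* and at -131 in *Atp6v1a*. The longer TCACGTGA, the core of the CLEAR element that the lysosomal transcription factors TFEB and TFE3 bind, contains the E-box and was in 3 of the 7, *Atp6v0d1*, *Atp6v0e* and *Atp6v1a*, against 0.974% of all windows. The full CLEAR palindrome of 10 bases was in 0 of the 7 and in 0.326% of all windows. Among the 12 other subunit genes with a window, CACGTG was in 0. The octamer ATGCAAAT, read by many POU factors, was in 0 of the 7 members and 1.74% of all windows, on either strand. A match is only a match of letters, and its absence says only that these letters are not in this window.

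**Figure D1:**
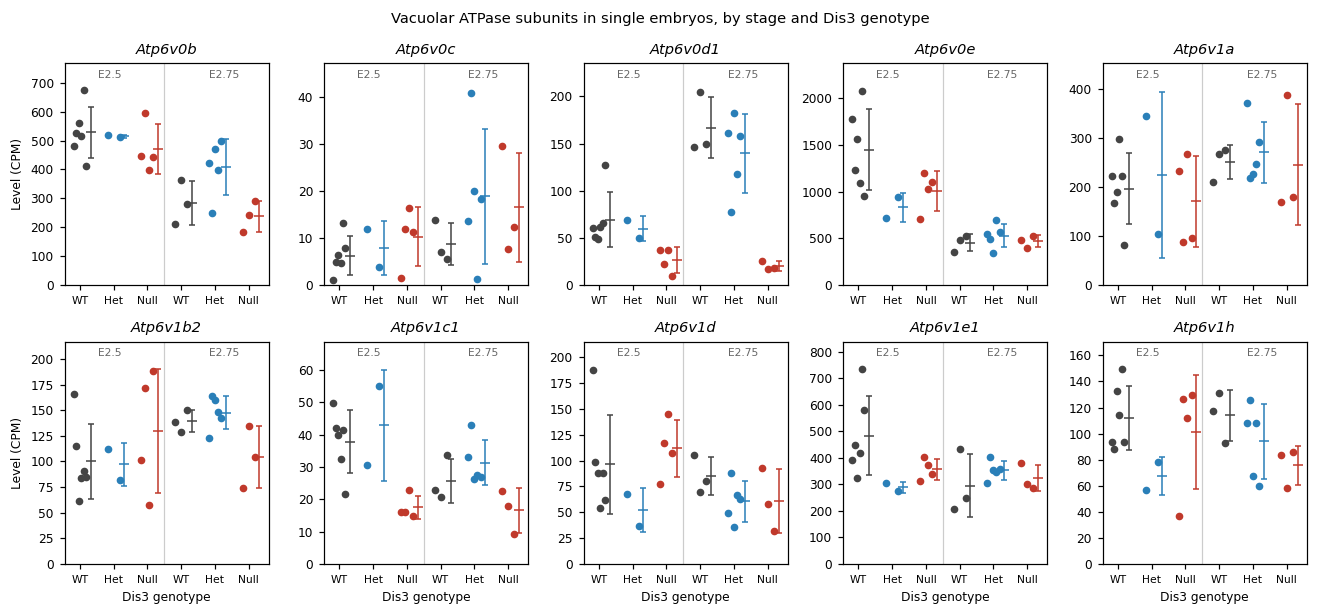
Level of each of the 10 subunits in CPM (y axes, from 0) in single embryos grouped by stage and Dis3 genotype (x axes), where each point is an embryo and the bar beside the points is the mean ± SD. The Atp6v0d1 points of the 7 null embryos, 9.87 to 37.6 CPM, lie below all 16 points of the other genotypes.

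*Atp6v0d1* encodes d1, the collar subunit that couples the c ring to the central rotor (ENSMUSG00000013160, chr8:105524465-105566047 on GRCm38, minus strand). In the wild-type embryos of E2.5 it was at 60.4, 51.4, 49.3, 62.0, 65.9 and 127 CPM, and in the 2 het embryos at 69.5 and 50.5 CPM. In the E2.5 null embryos it was at 37.6, 22.4, 37.5 and 9.87 CPM. The highest wild-type value of that stage belonged to the library labelled replicate 6. At E2.75 the wild-type embryos were at 147, 204 and 150 CPM and the het embryos at 161, 78.1, 182, 118 and 159 CPM. The E2.75 null embryos were at 26.1, 16.9 and 18.4 CPM. Over both stages the mean was 24.1 ± 10.5 CPM in null (SD, n = 7), 117 ± 51.8 CPM in het (n = 7) and 102 ± 56.3 CPM in wild-type embryos (n = 9).

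The fit over all genes merged the stages, with no term for stage. In it the null embryos were 4.83-fold lower than the het embryos in *Atp6v0d1* (log2 fold change -2.27, SE 0.38) and 4.21-fold lower than wild-type embryos (-2.07, SE 0.37). A gene was called where edgeR's adjusted p was under 0.1 and the log2 fold change beyond 1, the thresholds of the study, and *Atp6v0d1* was called lower in both comparisons. Of the 10 members 2 were called in null against het, both lower, where 5.73% of the 13415 genes tested were called and 2.06% were called lower. In null against wild-type 1 member was called, lower, where 5.25% of genes were called and 1.59% lower. Genes whose 7 null embryos were all below the 7 het embryos made up 0.686% of the genes tested and included *Atp6v0d1* and *Atp6v1c1*, and those below all 9 wild-type embryos made up 0.149% and included *Atp6v0d1*. Without wild-type replicate 6 of E2.5, the difference from wild-type was -2.03 and still called. *Atp6v0d1* was called lower in null against het and against wild-type in each of 23 fits that left out 1 embryo. Without the 2 libraries under 2000000 counts, 2 members were called against het and 2 against wild-type, *Atp6v0d1* and *Atp6v1c1* in both. The share of all genes called in that fit is not reported here. In whole-embryo RNA, fewer cells of a type and less RNA per cell cannot be told apart.

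The difference in *Atp6v0d1* was larger at E2.75 than at E2.5 as measured. At E2.5 it was 2.34-fold lower in null than het embryos (log2 -1.22, SE 0.53) and 2.64-fold lower than in wild-type embryos (-1.40, SE 0.43, or -1.12 without replicate 6), and it was called in neither, where 0.0126% and 0.459% of 15904 genes were called lower. At E2.75 it was 6.97-fold lower than in het (-2.80, SE 0.34) and 8.42-fold lower than in wild-type embryos (-3.07, SE 0.36), and called in both, where 2.31% and 2.35% of 14442 genes were called lower. The difference between the stages in null against het was -1.62 with an SE of 0.63. It was not called, and edgeR called 0 of 18677 genes for that difference, with 1234 at an unadjusted p under 0.05 and 81 of 16893 called by DESeq2.

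In wild-type embryos *Atp6v0d1* rose from E2.5 to E2.75 and *Atp6v0e* fell, the 2 members called of 10, where 3.74% of 18677 genes were called higher and 3.64% lower. The rise of *Atp6v0d1* was 2.41-fold (log2 1.27, SE 0.36), from 69.4 ± 29.1 CPM (n = 6) to 167 ± 32.2 CPM (n = 3), and 1.53 on the log2 scale without the E2.5 library of replicate 6. The null embryos were at 26.9 ± 13.4 CPM at E2.5 (n = 4) and 20.5 ± 4.94 CPM at E2.75 (n = 3), a pair of groups whose ranges overlapped. *Atp6v0e* encodes e1, a small V0 subunit, on chr17:26663231-26699647. Its levels in wild-type embryos of E2.5 were 1775, 1225, 1560, 1086, 2066 and 953 CPM, and those of E2.75 were 351, 486 and 531 CPM. The fall was 3.17-fold (log2 -1.66, SE 0.27, and -1.76 without the E2.5 library of replicate 6). Relative to the ERCC spike-ins the median of all genes was 0.89 higher at E2.75 on the log2 scale, and against that scale *Atp6v0e* was at -0.61 and not called, while *Atp6v0d1* was at 2.23 and called. *Atp6v0e* was at 707 to 1192 CPM in null embryos of E2.5 and 399 to 522 CPM in those of E2.75, so that both null groups overlapped the range of the het embryos over both stages, 347 to 938 CPM. With the stages merged, the null against het difference of *Atp6v0e* was 0.33 (SE 0.34) and that against wild-type -0.52 (SE 0.32), or -0.55 without that library, none of them called. At E2.5 alone it was at 0.21 (SE 0.31) against het and -0.55 (SE 0.24) against wild-type, or -0.64 without that library. At E2.75 alone it was at -0.21 (SE 0.24) and -0.006 (SE 0.27), and none of these was called either.

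*Atp6v0b* encodes c″, the ring subunit with its own proton-carrying helix (chr4:117884326-117887333, minus strand). The wild-type embryos of E2.5 were at 481, 527.5, 559.5, 517, 673 and 412 CPM, and those of E2.75 at 211, 362 and 280.4 CPM. The log2 difference between these stages was -0.89 (SE 0.25, and -0.96 without replicate 6 of E2.5), which was not called and was 0.07 against the spike-ins. In null embryos the levels were 397 to 595 CPM at E2.5 and 183 to 290 CPM at E2.75. The E2.75 het embryos were at 251 to 499 CPM, and the null against het difference at that stage was -0.81 (SE 0.27), not called. *Atp6v0b* and *Atp6v0e* had the highest correlation of any 2 members over the 23 embryos, a Spearman rho of 0.762, in libraries that share stage and depth. After the mean of each stage and genotype was taken off, the rho of this pair was 0.348, and the highest was 0.534 (*Atp6v0c* and *Atp6v1e1*). The median rho over the 45 pairs of members was 0.0593 for levels and 0.0692 for these deviations.

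*Atp6v0c* encodes the c subunit, which makes up most of the proton-carrying ring. Its counts were few, 1768 over all 23 libraries, and its level ran from 1.06 to 41.0 CPM between embryos, with 7.19 ± 4.09 CPM in wild-type (n = 9), 15.8 ± 13.1 CPM in het (n = 7) and 13.03 ± 8.64 CPM in null embryos (n = 7). The ranges overlapped, and no comparison of the genotypes was called. The level is uncertain. A processed pseudogene of the gene, *Atp6v0c-ps2* on chromosome 6, had 927 counts in the same libraries. Whether reads that match both copies were counted or left out of the deposited counts was not tested.

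In V1, *Atp6v1c1* was the 1 member called between genotypes. It encodes C1, the subunit that joins the outer stalks to the a subunit and leaves when V1 is released (chr15:38661933-38692446). The 4 null embryos of E2.5 were at 16.2, 15.97, 22.9 and 14.8 CPM, and the 3 of E2.75 at 22.7, 17.95 and 9.14 CPM. The 2 het embryos of E2.5 were at 30.7 and 54.9 CPM and the 5 of E2.75 at 32.95, 42.8, 26.3, 27.5 and 26.8 CPM, all above the null embryos. The wild-type embryos of E2.5 were at 49.75, 41.96, 39.8, 32.4, 41.4 and 21.6 CPM and those of E2.75 at 22.9, 20.7 and 33.55 CPM, which overlapped the null range. Null embryos were 2.03-fold lower than het embryos (log2 -1.02, SE 0.31; called) and 1.98-fold lower than wild-type embryos (-0.99, SE 0.29; short of the fold of the call). The call against het was lost without E2.5 het replicate 2, E2.5 null replicate 4, E2.75 het replicate 2 or E2.75 null replicate 3, and over all 23 fits without 1 embryo the value ran from -1.16 to -0.88. Without wild-type replicate 6 of E2.5, the difference from wild-type was -1.05 and called. The companion isoform *Atp6v1c2* was at 16.8 CPM or less in every embryo, and 50 of its exonic bases overlap *Pdia6* on the other strand in counts that ignored strand.

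The other 5 V1 members were not called between genotypes in either comparison. *Atp6v1a*, the catalytic A subunit, was at 215 ± 65.2 CPM in wild-type (n = 9), 257 ± 88.9 CPM in het (n = 7) and 203 ± 104 CPM in null embryos (n = 7). The null against het difference was -0.35 (SE 0.31) for *Atp6v1a* and -0.16 (SE 0.26) for *Atp6v1b2*, which encodes the B subunit of most tissues. *Atp6v1e1*, the E subunit of the outer stalk, differed by 0.03 (SE 0.22) and *Atp6v1h*, a regulatory subunit, by 0.07 (SE 0.26). *Atp6v1d*, the rotor subunit D, was the highest against het, with 0.63 (SE 0.31), and was at -0.04 (SE 0.29) against wild-type embryos. Against het at E2.5 it was at 1.02 (SE 0.50), with the 4 null embryos at 77.1 to 145 CPM and the 2 het embryos at 67.4 and 36.8 CPM, and at -0.02 (SE 0.38) at E2.75. The median log2 fold change of the 10 members was -0.20 in null against het, where the median of all genes tested was 0.02, and -0.28 in null against wild-type, where that of all genes was -0.02. Without 1 embryo these medians ran from -0.25 to -0.02 and from -0.38 to -0.16. The first was -0.02 without E2.75 het replicate 2, as near to 0 as the median of all genes, and -0.11 without E2.5 null replicate 1, and the second was -0.16 without E2.5 wild-type replicate 5. Against the ERCC spike-ins the median of all genes was itself -1.08 in null against het, and on that scale *Atp6v0e* (-0.92) and *Atp6v1d* (-0.69) were below 0, while *Atp6v0d1* (-3.52) stayed 2.44 below the median of all genes. The spike-in median of all genes was -0.37 in null against wild-type and 0.71 in het against wild-type, so the het embryos stood above both other genotypes. The V0 members had a median of -0.26 and the V1 members -0.06 in null against het. In het against wild-type the members had a median of 0.00 and 0 were called. There edgeR called 0 of 13415 genes, with 934 at an unadjusted p under 0.05 and 65 of 18422 called by DESeq2.

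**Figure D2:**
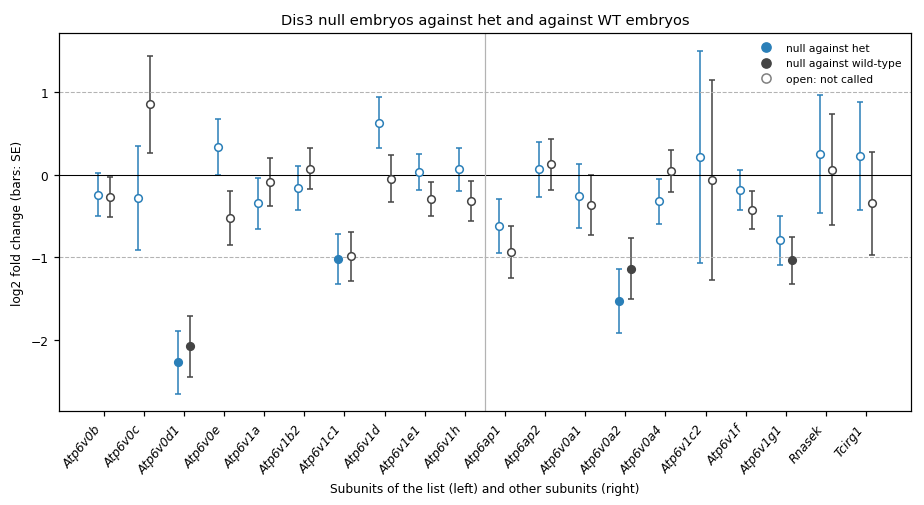
Log2 fold change (y axis, bars are the SE of the fit) of null against het (blue) and null against wild-type embryos (grey) for the 10 subunits of the list on the left and the 10 other subunits tested on the right (x axis); filled points were called and dashed lines mark a log2 fold change of 1 in either direction. Atp6v0d1 stands lowest in both comparisons, at -2.27 and -2.07, followed by Atp6v0a2 at -1.53 and -1.14.

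Of the 16 other subunit genes, 10 passed the filter on low counts, and 1 was called in null against het and 2 in null against wild-type, all lower. Of the 13415 genes tested, 5.73% were called against het (2.06% lower) and 5.25% against wild-type (1.59% lower). *Atp6v0a2* encodes a2, an isoform of the a subunit found mainly on Golgi and endosomes. In null embryos it was at 10.3, 5.27, 12.5 and 8.46 CPM on E2.5, then at 8.87, 17.95 and 18.0 CPM on E2.75. In het embryos it was at 16.8 and 32.5 CPM on E2.5, then at 43.7, 27.1, 22.8, 56.6 and 35.1 CPM on E2.75, so that the highest null and the lowest het values overlapped. It fell 2.89-fold in null against het (log2 -1.53, SE 0.39; edgeR, Benjamini-Hochberg adjusted p = 0.0218) and 2.198-fold in null against wild-type (-1.14, SE 0.37; adjusted p = 0.0864). The call against wild-type was kept in 14 of the 23 fits without 1 embryo, where the log2 fold change ran from -1.29 to -0.99, and in 3 of 8 alternatives. It was lost without wild-type replicate 6 of E2.5, among others, against the spike-ins, and without the 2 libraries under 2000000 counts. *Atp6v1g1*, the G subunit of the outer stalk, fell against wild-type (-1.03, SE 0.28; edgeR adjusted p = 0.0358) and was at -0.79 against het (SE 0.29; adjusted p = 0.139). It was at 18.7 to 44.9 CPM in null, 35.9 to 59.7 CPM in het and 23.5 to 106 CPM in wild-type embryos. That call was lost without E2.5 wild-type replicate 1 or 5, E2.5 null replicate 2 or E2.75 null replicate 2, where the log2 fold change ran from -0.99 to -0.86, and it was kept in 4 of 8 alternatives, which ran from -1.28 to -0.83.

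Among the accessory subunits, *Atp6ap1*, which helps V0 assemble, fell at E2.75 against wild-type embryos (log2 -1.44, SE 0.37; edgeR adjusted p = 0.0577). Its levels there were 52.3, 152 and 155 CPM in null embryos and 239, 346 and 365 CPM in wild-type embryos. It was the 1 called of 11 other subunits tested in that comparison, where 2.35% of 14442 genes were called lower. Against het embryos of E2.75 it was at -0.63 (SE 0.33; adjusted p = 0.357) and was not called. The other subunits tested were not called between genotypes. In null against het *Atp6v0a1* was at -0.26 (SE 0.38), *Atp6v0a4* at -0.32 (SE 0.27), *Tcirg1* at 0.23 (SE 0.66), *Atp6v1f* at -0.19 (SE 0.24), *Atp6v1c2* at 0.22 (SE 1.28) and *Rnasek* at 0.25 (SE 0.71). Of the exon bases of *Rnasek*, 67.7% overlap *Gm21988* on the same strand, and its counts were few, 532 over all libraries. Whether its reads were left out as ambiguous was not tested. *Atp6ap2*, the prorenin receptor, was at 0.07 (SE 0.33) against het and 0.13 (SE 0.31) against wild-type embryos. At each stage alone, 0 of 11 other subunits were called by edgeR in null against het. Of all genes it called 2 of 15904 at E2.5, so that a count of 0 says little there, and 696 of 14442 at E2.75. At E2.5 1 of the 11 had an unadjusted p under 0.05 and DESeq2 called 0 of 12, and at E2.75 2 of the 11 had one and DESeq2 called 2 of 13.

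**Figure D3:**
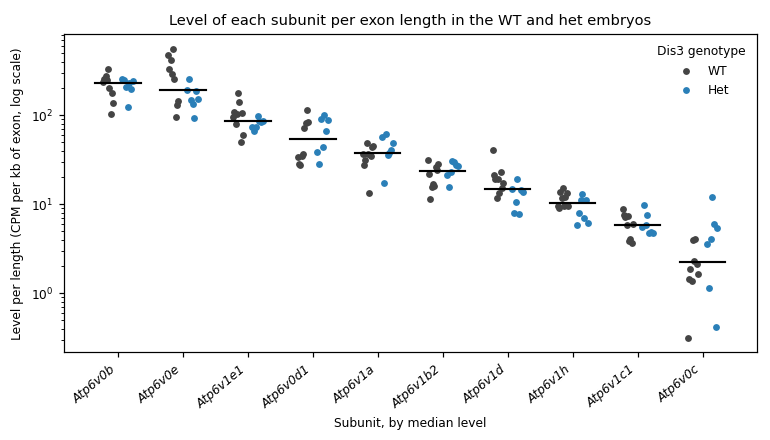
Level per length (y axis, CPM per kb of exon, log scale) of the 10 subunits (x axis, ordered by median) in the 9 wild-type (grey) and 7 het embryos (blue), each point an embryo and each black line the median of the 16, pooled over both stages. The medians run from 232 CPM per kb for Atp6v0b to 2.22 CPM per kb for Atp6v0c, whose level is uncertain.

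Levels of different genes were compared per kb of exon, in the 16 wild-type and het embryos. The median was 232 CPM per kb for *Atp6v0b* and 191 for *Atp6v0e*, then 86.6 for *Atp6v1e1*, 54.8 for *Atp6v0d1*, 37.2 for *Atp6v1a* and 23.7 for *Atp6v1b2*. It was 14.8 CPM per kb for *Atp6v1d*, 10.4 for *Atp6v1h*, 5.83 for *Atp6v1c1* and 2.22 for *Atp6v0c*, whose level and place are uncertain because of its pseudogene. This order pools both stages, and within the stages some neighbours changed places. Of the 8 wild-type and het embryos of E2.5, *Atp6v0e* was above *Atp6v0b* in 7 (medians 311 and 252 CPM per kb) and *Atp6v1e1* above *Atp6v0d1* in 8 (98.8 and 34.1). Of the 8 of E2.75, *Atp6v0b* was above *Atp6v0e* in 6 (186 and 138 CPM per kb) and *Atp6v0d1* above *Atp6v1e1* in 6 (86.0 and 85.1), so that the later medians of *Atp6v0d1* and *Atp6v1e1* did not differ beyond the spread between embryos. *Atp6v0d1* and *Atp6v1a* were not separated at E2.5, with 4 of 8 embryos either way, nor *Atp6v1c1* and *Atp6v0c* at E2.75, again with 4 of 8. At E2.5 *Atp6v1b2* was above *Atp6v1d* in 5 of 8 embryos, while its median was slightly lower (16.6 and 16.8 CPM per kb). At E2.75 it was above *Atp6v1d* in 8 of 8 (27.3 and 14.8). Over both stages, *Atp6v0e* was above *Atp6v1e1* in 16 of 16 embryos, and *Atp6v1a* above *Atp6v1b2* and *Atp6v1h* above *Atp6v1c1* in 15 of 16. The order of genes that are assembled in fixed ratios depends on the length of the exons counted, which for *Atp6v1h* (9746 bases) is several times that of *Atp6v0d1* (1793 bases).

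For the B and E subunits the members *Atp6v1b2* and *Atp6v1e1* were the only isoform with counts. Their other isoforms *Atp6v1b1* and *Atp6v1e2*, known from kidney and testis, had 0 counts, as did *Atp6v1g3* of the G subunit, in 177310988 over all libraries, which allows up to 0.0169 CPM. *Atp6v0d2*, the other d isoform and a gene of osteoclasts and kidney, had 1 count, so *Atp6v0d1* made up at least 99.96% of the d isoforms per length in every embryo. *Atp6v0e2* had 291 counts, 153 of them in E2.75 het replicate 3, and in wild-type embryos reached at most 0.145 CPM on E2.5 and 1.33, 6.91 and 1.11 CPM on E2.75. The wild-type difference between the stages was called for *Atp6v0e2* (log2 5.11, SE 1.59; edgeR adjusted p = 0.0622), on 4 counts in the 6 E2.5 embryos. *Atp6v0e* made up 94.6% or more of the e isoforms in every embryo. *Atp6v1c1* made up at least 67.98% of the C isoforms in wild-type, 69.05% in het and 34.6% in null embryos, with a median of 85.2%, 94.3% and 100% in these genotypes.

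**Figure D4:**
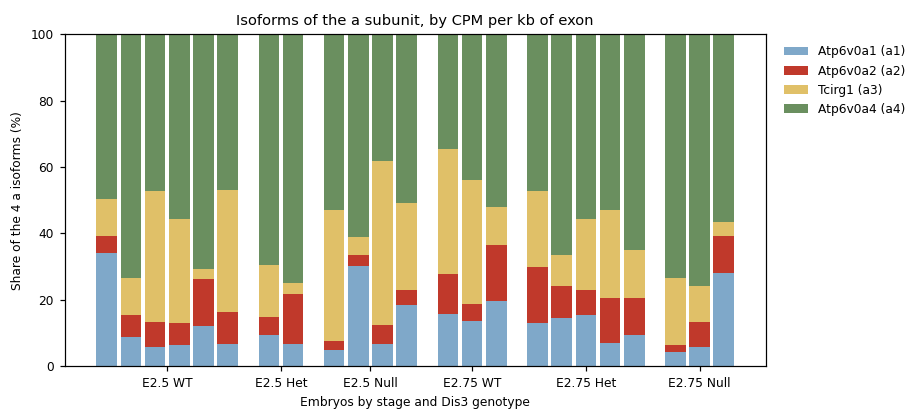
Share of each isoform of the a subunit (y axis, % of the summed CPM per kb of the 4 genes) in each embryo (bars, grouped by stage and Dis3 genotype on the x axis). Atp6v0a4 (green) takes the largest share in 21 of 23 embryos, and the Atp6v0a2 share (red) has a median of 4.54% in null and 10.9% in het embryos.

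The a subunit was spread over 4 genes, none of them on the list. *Atp6v0a4*, the a4 isoform known from kidney intercalated cells, was the most abundant of them per length in 8 of 9 wild-type, 7 of 7 het and 6 of 7 null embryos. Its share was 52.7% ± 12.5 in wild-type (SD, n = 9), 61.7% ± 9.98 in het (n = 7) and 58.5% ± 13.2 in null embryos (n = 7). *Tcirg1*, the a3 isoform of osteoclasts, varied most, from 3.07% to 49.5% between embryos, and was the most abundant in the other 2. *Atp6v0a2* took 9.34% ± 4.09 in wild-type, 11.2% ± 4.18 in het and 5.35% ± 3.14 in null embryos.

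The genes known to act with the enzyme were examined from lists of whole families. In null against het 5.73% of the 13415 genes tested were called, and 2.06% were called lower. Of 41 lysosome genes tested, 0 were called higher and 6 lower in null against het, and the median log2 fold change was -0.75, where the median of all genes was 0.02. Among them were the lipid hydrolases *Smpd1* and *Hexa*, the glycogen hydrolase *Gaa*, the protease *Ctsh* and the progranulin gene *Grn*. *Smpd1*, acid sphingomyelinase, was at 38.3 ± 31.9 CPM in null (n = 7), 213 ± 104 CPM in het (n = 7) and at a median of 98.2 CPM in wild-type embryos (n = 9), and fell 5.56-fold against het (log2 -2.47, SE 0.50; edgeR adjusted p = 0.0047). *Ctsh* fell by 1.36 on the log2 scale (SE 0.35; edgeR adjusted p = 0.0243) and *Grn* by 1.55 (SE 0.41; adjusted p = 0.0296). *Gaa* and *Hexa* were close to the threshold, with an adjusted p of 0.099 each. Against wild-type embryos 2 lysosome genes were called, *Ctsh* lower (-2.005, SE 0.34; adjusted p = 0.000685) and *Tpp1* higher (4.86, SE 1.48; adjusted p = 0.063), with a median of -0.55 over the 41. Of all genes tested, 5.25% were called against wild-type. *Tpp1* was at most at 17.4 CPM in null, 11.5 CPM in het and 0.799 CPM in wild-type embryos. It was at 4.80 in het against wild-type (SE 1.47; edgeR adjusted p = 0.537) and at 0.06 in null against het (SE 1.37), neither called.

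Of 15 lysosomal mTORC1 genes tested (Ragulator, the Rag GTPases and mTORC1 subunits), 1 was called in either comparison, where 5.73% (against het) and 5.25% (against wild-type) of all genes were called. It was *Rragd*, which encodes RagD, and it fell by 2.698 on the log2 scale against het (SE 0.46; edgeR adjusted p = 0.000865) and by 1.76 against wild-type (SE 0.42; adjusted p = 0.0157). Its level was 36.4 ± 24.5 CPM in null, 237 ± 91.5 CPM in het and 123 ± 64.4 CPM in wild-type embryos. By edgeR 0 of 10 genes for assembly and regulation of the V-ATPase were called in null against het, with 0 at an unadjusted p under 0.05 and 0 by DESeq2. Of the 16 subunits of the mitochondrial ATP synthase, a related rotary enzyme, edgeR called 0, with 0 at an unadjusted p under 0.05, and DESeq2 called 0, with 1. The MiT/TFE factors, which bind CLEAR elements, were represented by *Tfeb* at 0.33 (SE 0.33; edgeR adjusted p = 0.671) and *Tfe3* at -0.95 (SE 0.59; adjusted p = 0.431) in null against het. *Mitf* and *Tfec* did not pass the filter on low counts. By edgeR 0 of 2 were called and by DESeq2 0 of 4, both with 0 at an unadjusted p under 0.05.

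The genes whose levels over the 23 embryos followed the mean log2 CPM of the 10 members most closely, among 7694 genes, were *Pmvk* (Spearman rho 0.736), *Atp2b1* (0.729), *Zfp821* (0.711), *Nrip3* (0.675) and *Twf2* (0.668). Those closest to *Atp6v0d1* alone were *Hip1* (0.868), *Sec1* (0.853), *Ide* (0.849), *Pdia5* (0.848) and *Snap47* (0.840), by the same rule, which was applied to that gene after its values were seen. These are descriptions over embryos that share library, stage and genotype.

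**Figure D5:**
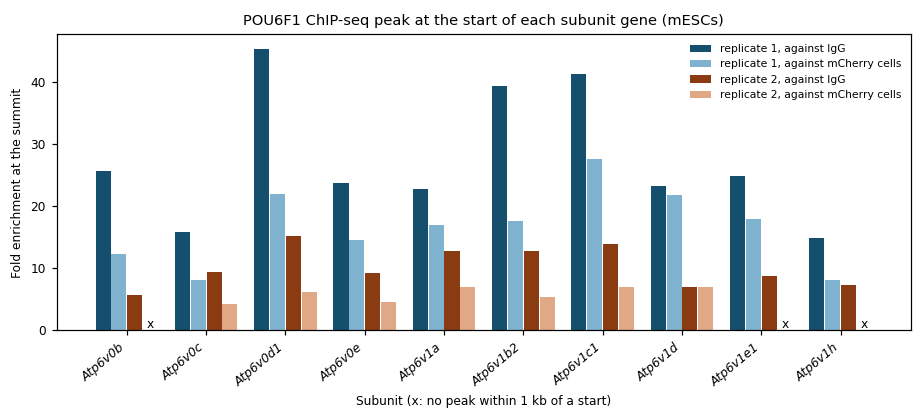
Fold enrichment of the strongest POU6F1 ChIP-seq peak (y axis, from 0) within 1 kb of a start site of each of the 10 subunit genes (x axis) in mESCs, for 2 replicates each called against IgG (dark bars) or against the precipitate of mCherry cells (light bars); x marks a list with no peak. Against IgG in replicate 1 Atp6v0d1 has the highest bar, 45.3-fold, and Atp6v0b, Atp6v1e1 and Atp6v1h have no peak in the list of replicate 2 against mCherry cells.

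The binding of POU6F1, a POU homeodomain factor, had been measured in another cell type, mouse embryonic stem cells. The study derived its stem cells from *Dis3* flox/flox blastocysts. The binding was measured 48 h after transfection with Pou6f1-mCherry under the strong CAG promoter. It was measured by anti-mCherry ChIP-seq in 2 replicates, and peaks were called in each against 2 controls, IgG and the anti-mCherry precipitate of cells with mCherry alone. The labels list a single IgG sample and a single anti-mCherry sample of mCherry cells. The calls of the 2 replicates against a control may therefore not be independent. The ChIP-seq readout is separate from the embryo counts, and the factor was overexpressed. *Pou6f1* RNA in the embryos was at 17.7 to 78.4 CPM in null, 7.99 to 34.9 CPM in het and 3.34 to 55.2 CPM in wild-type embryos (null against het 1.38, SE 0.54; edgeR adjusted p = 0.169). The study reports that this RNA persisted in null embryos. Null against het was 1.80 (SE 0.90) at E2.5 and 1.14 (SE 0.56) at E2.75. Null against wild-type was 2.01 (SE 0.61) and 0.09 (SE 0.63), none called. In wild-type embryos the RNA rose between the stages (log2 1.79, SE 0.61; edgeR adjusted p = 0.0875).

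All 10 members had a peak within 1 kb of a start site in both replicates against the same control, where 66.5% of 13399 genes tested in the embryos did. Against IgG alone the count was again 10, beside 66.4% of genes, and with a -log10 q of at least 10 it was 9, beside 29.1%. Against mCherry cells it was 7, beside 24.0% of genes. The 3 without a peak in the second replicate there were *Atp6v0b*, *Atp6v1e1* and *Atp6v1h*. Of the 10 other subunits tested in the embryos, 9 had a peak against IgG in both replicates and 0 against mCherry cells in both. Under the first rule all 10 assembly and regulator genes, 14 of 16 mitochondrial ATP synthase genes and 32 of 41 lysosome genes tested also had a peak, so that a peak at the start was common among these genes. The lists differ in size, with 82694 and 24524 peaks against IgG and 31348 and 3630 against mCherry cells in replicates 1 and 2, so that the second replicate limits each count.

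At *Atp6v0d1* the peak of replicate 1 against IgG, chr8:105565329-105566520, was 45.3-fold enriched with a -log10 q of 113, and its summit lay 67 bases before the start site. The enrichment was 22.02-fold against mCherry cells in replicate 1, and 15.2-fold and 6.18-fold in replicate 2. The 4 summits lay 67 to 76 bases before the start. *Atp6v1c1*, with a 41.3-fold, and *Atp6v1b2*, with a 39.3-fold peak in replicate 1 against IgG, came next among the members, and *Atp6v1h* was lowest at 14.9-fold. Of the windows printed above, the peak of replicate 1 against IgG covered all 300 bases at *Atp6v0d1*, 235 at *Atp6v0b* and 190 at *Atp6v0e*. At *Atp6v1a* it covered 0 bases of the RefSeq window, where the peak lay upstream of the window. Members with a strong peak were both lower in null embryos (*Atp6v0d1*, *Atp6v1c1*) and not called (*Atp6v1b2*). No number of reads comes with the peak lists, so their depth is unknown.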

How the data were processed

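RNA of 23 single embryos was converted to cDNA with oligo-dT and template switching and amplified over 18 PCR cycles, with ERCC spike-ins. STAR 2.7.8a (GRCm38) was run by the authors on reads trimmed by cutadapt 3.4, and HTSeq 0.11.4 gave the reads per gene (intersection-strict, without strand). The deposited counts are raw reads per gene, with 92 spike-ins and 5 summary lines, which were kept out of library sizes and tests. Reads not wholly within annotated exons were 20.99% to 43.9% and ambiguous reads 1.89% to 2.73% of the counted total. For ChIP-seq, reads were aligned with Bowtie2 2.4.4 and peaks called by the authors in each replicate with MACS2 2.2.7.1, each replicate against IgG and against mCherry cells, a control identity taken from the numbering of the lists in the study. The deposited peak lists give fold enrichment, a score and the -log10 of p and q from the authors' peak caller. The deposited score was not used.

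Counts of the 23 embryos were fitted with edgeR 4.0.16 in R 4.3.3 (quasi-likelihood test, TMM normalization, filterByExpr, Benjamini-Hochberg adjustment over all genes tested), with stages merged by genotype, at each stage alone, and as 6 groups of stage and genotype. The merged fits held no term for stage, and the genotypes hold different shares of each stage. A merged difference can therefore carry part of the change between stages. Calls used the thresholds of the study. DESeq2 1.42.0, other scalings, other filters, covariates and leave-one-out were alternatives. Fits were tested on simulated data. Exon lengths and gene coordinates are those of GENCODE vM21. A gene had a peak where a peak overlapped the window of 1 kb on either side of a start by at least 1 base. P-values measure the spread between embryos, which may share litters, and limits from a count of 0 cover counting error only. Replicates differed by more than sampling noise in all 38 pairs.

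The members, the lists and the tests were chosen with earlier results of these data known. Named were every member, the other subunits tested, at most 6 called genes of each companion list, *Dis3*, the MiT/TFE factors, *Pou6f1* and the 5 genes most like the members. The values of 1 called companion gene are not reported here. Genes at 0 or 1 count, low subunits, called markers, *Tpp1* and the genes most like *Atp6v0d1* were named after their values were seen.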

Additional observations from a re-analysis of the deposited data

Results flagged for a closer look

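In 2 of 30 groups of 4 to 6 embryos examined, 1 embryo lay far from the others of its stage and genotype. Chance alone gives this in about 1 in 20 groups. *Atp6v0d1* was at 127 CPM in wild-type replicate 6 of E2.5, while the other 5 wild-type embryos of that stage were at 49.3 to 65.9 CPM. In the same library *Dis3* was at 18.0 CPM, within the 0 to 21.5 CPM of the null embryos, while its *Atp6v0d1* level was the highest of the E2.5 embryos. *Atp6v1d* was at 187 CPM in E2.5 wild-type replicate 1, while the other 5 were at 54.5 to 99.0 CPM.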

How the results depend on the processing

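*Atp6v0d1* was called lower in null embryos, against het and against wild-type, under each of 8 alternatives and each of 23 fits without 1 embryo, with log2 fold changes from -3.52 to -1.85 and from -2.70 to -1.88. The number of members called in null against het, 2, became 1 with the size factors of DESeq2 and 1 with the replicate block, and 1 to 2 over the fits without 1 embryo. In null against wild-type it was 1 and became 2 against the spike-ins, 2 without a filter on low counts and 2 without the libraries under 2000000 counts (an alternative chosen after seeing the data), and 1 to 2 over the fits without 1 embryo. The fits that gave 2 there left out E2.5 wild-type replicate 6, E2.5 null replicate 3, E2.75 wild-type replicate 1 or 2, or E2.75 null replicate 1 or 2. Scaling to the spike-ins moved most counts, since it shifted the median of all genes to -1.08 in null against het. That median was -0.37 in null against wild-type and 0.71 in het against wild-type. In null against het this scaling gave 7 members (median log2 fold change -1.34), 7 other subunits and 50 of the companion genes called. It gave 3 members at E2.5 and 5 at E2.75, beside 0 and 1 with TMM. Over all genes it called 1955 of 15904 at E2.5 and 2494 of 14442 at E2.75 against het. In null against wild-type it called 786 of 13415 genes. DESeq2 called 1 member at E2.5, where it called 598 of 14985 genes, and 2 other subunits in null against het with the stages merged. Over all genes, 769 calls in null against het became 4776 against the spike-ins (4487 of them lower, beside 276 of the 769), 1808 without a filter, 1784 by DESeq2 and 332 with the replicate block, and 704 calls in null against wild-type became 3409 without a filter and 1663 by DESeq2. The deviations of embryos with the same replicate number had correlations of -0.106 to 0.0858 over the pairs. Pairs with different numbers were not compared, so these values cannot say whether embryos of a number shared a litter or a batch. With the replicate block, 0 of the other subunits and 4 of the companion genes were called, beside 1 and 7 without it. *Atp6v0a2* was lost in null against het under the block (edgeR adjusted p = 0.184). No result changed direction past its threshold. The cause of the changes other than the fewer embryos or the scaling itself was not tested. The 2 E2.75 null libraries of 1690192 and 1914128 counts limit low genes such as *Atp6v0c*, and leave-one-out was not run for the companion genes.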
